A study of Mus musculus with 10 samples.

Results

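The 48 genes described here encode heat shock proteins, their co-chaperones, the cytosolic chaperonin ring and the factors that switch heat shock genes on, and were taken by gene name from a table of 55952 mouse genes. All 48 were found. They fall into heat shock factors (2 genes), HSP70 with its HSP110 relatives (10), HSP90 (2), chaperones of mitochondria (5), small heat shock proteins (3), the DNAJ or HSP40 family (9), co-chaperones (10) and the CCT ring (7). The label of the set speaks of cytosolic chaperones, but the 5 mitochondrial genes are members too. Their messenger RNA was measured by bulk RNA sequencing in kidneys of C57BL/6 mice, an inbred strain, kept for 30 days at 4200 m (hypoxia, 5 libraries) or at 400 m (control, 5 libraries). The groups differ in altitude and therefore also in site of housing, which cannot be told apart. The labels name neither age nor sex. Nor do they say whether each library is a separate mouse, and p-values therefore reflect only how far these libraries spread, which may be in part technical.

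Chaperones bind unfolded proteins and keep them from sticking together until they fold or are degraded. HSP70 proteins do this in cycles of ATP hydrolysis that DNAJ proteins start and nucleotide exchange factors end, and HSP90 takes over partly folded clients such as steroid receptors and kinases with the help of its own co-chaperones. When unfolded proteins build up, the transcription factor HSF1 binds heat shock elements in the promoters of many of these genes and raises their transcription. In the kidney, heat shock proteins are known for their induction by ischaemia and by the salt and urea of the medulla.

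The libraries held 16561672 to 17845464 reads assigned to genes, recovered from the deposited FPKM (fragments scaled to gene length and library size), and 3 reads on a gene of 1 kb correspond to 0.165 to 0.183 FPKM. The protocol text speaks of retinas although the tissue label is kidney; 4 photoreceptor genes summed to 0.122 to 0.428 FPKM in hypoxia and 0.301 to 0.656 FPKM in control, against 659 to 1487 FPKM in hypoxia and 1302 to 1940 FPKM in control for 6 proximal tubule genes. Hypoxia replicates 4 and 5 stood apart. Replicate 5 held B cell markers at a sum of 321 FPKM and exocrine pancreas markers at 26.0 FPKM, where no other library exceeded 2.16 and 0.334 FPKM. It also had the lowest proximal tubule sum, 659 FPKM. Its T cell and macrophage markers summed to 19.1 and 90.5 FPKM, against at most 0.969 and 20.1 FPKM in any other library. Its adrenal cortex markers summed to 11.9 FPKM. Replicate 4 held adrenal cortex markers at 655 FPKM and fat markers at 563 FPKM; hypoxia replicates 1 to 3 and the controls did not exceed 1.57 and 129 FPKM. Of 64 marker genes in 18 lists of cell types and tissues, 51 were tested, 4 were lower (1 each of the proximal tubule, distal convoluted tubule, fibroblast and fat lists) and 0 higher. Over all tested genes 7.79% were lower and 3.66% higher, so the lower count is near the share over all genes. Podocyte markers summed to 99.8 to 132 FPKM in hypoxia replicates 1 to 4 and 61.3 FPKM in replicate 5, against 67.7 to 86.5 FPKM in control, and intercalated cell markers to 49.7 to 109 FPKM in hypoxia and 43.0 to 50.5 FPKM in control. Erythroid markers reached 5214 FPKM in hypoxia replicate 5 and at most 577 FPKM elsewhere. Genes of the mitochondrial genome took 10.1 to 12.3% of reads in hypoxia replicates 1 to 4 and 8.50% in replicate 5, against 8.68 to 9.72% in control. Results are also given without hypoxia replicates 4 and 5. The part that other tissue, cell makeup or the mitochondrial share plays in the results was not tested.

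Some chaperone messages fell in hypoxia, among them Hsph1, both HSP90 genes, Dnaja1 and Dnaja4, and none rose. Of the 46 members with a mean of at least 0.5 FPKM, 18 fell and 0 rose at an adjusted p of 0.05 (limma on log2(FPKM + 0.5), hypoxia minus control, adjusted over all 15264 tested genes). Over all tested genes 11.5% passed, 7.79% lower and 3.66% higher. The median log2 fold change was -0.28 over the members and 0.012 over all genes. In 18 members every hypoxia library lay below every control library, and in 0 above; these were the members that fell other than Cryab, and Dnaja3. Over all tested genes the groups did not overlap in 8.54% on the lower and 5.68% on the higher side. Without hypoxia replicates 4 and 5, 19 members were lower and 0 higher, against 7.75% lower and 4.53% higher of 14724 genes, and 17 of the 18 kept their call; the one that lost it was Cryab. In this bulk tissue, fewer cells of a type and less RNA per cell cannot be told apart.

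The summed level of the 48 genes was 2238 ± 118 FPKM in hypoxia, against 2964 ± 111 FPKM in control (SD, n = 5 each). Their reads made up 0.737 to 0.837% of all assigned reads in the hypoxia libraries, against 0.942 to 1.05% in the controls, so the 2 groups did not overlap. All 5 hypoxia libraries took part: the median member lay -0.26, -0.26, -0.23, -0.33 and -0.37 from the control mean on the log2 scale in hypoxia replicates 1 to 5. Across all genes the split of calls depended on the scaling: 559 were higher and 1189 lower as deposited, and 918 higher and 767 lower when libraries were scaled without the 100 most abundant genes, which moved the median of all genes to 0.076. The members then gave 1 higher and 16 lower.

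**Figure D1:**
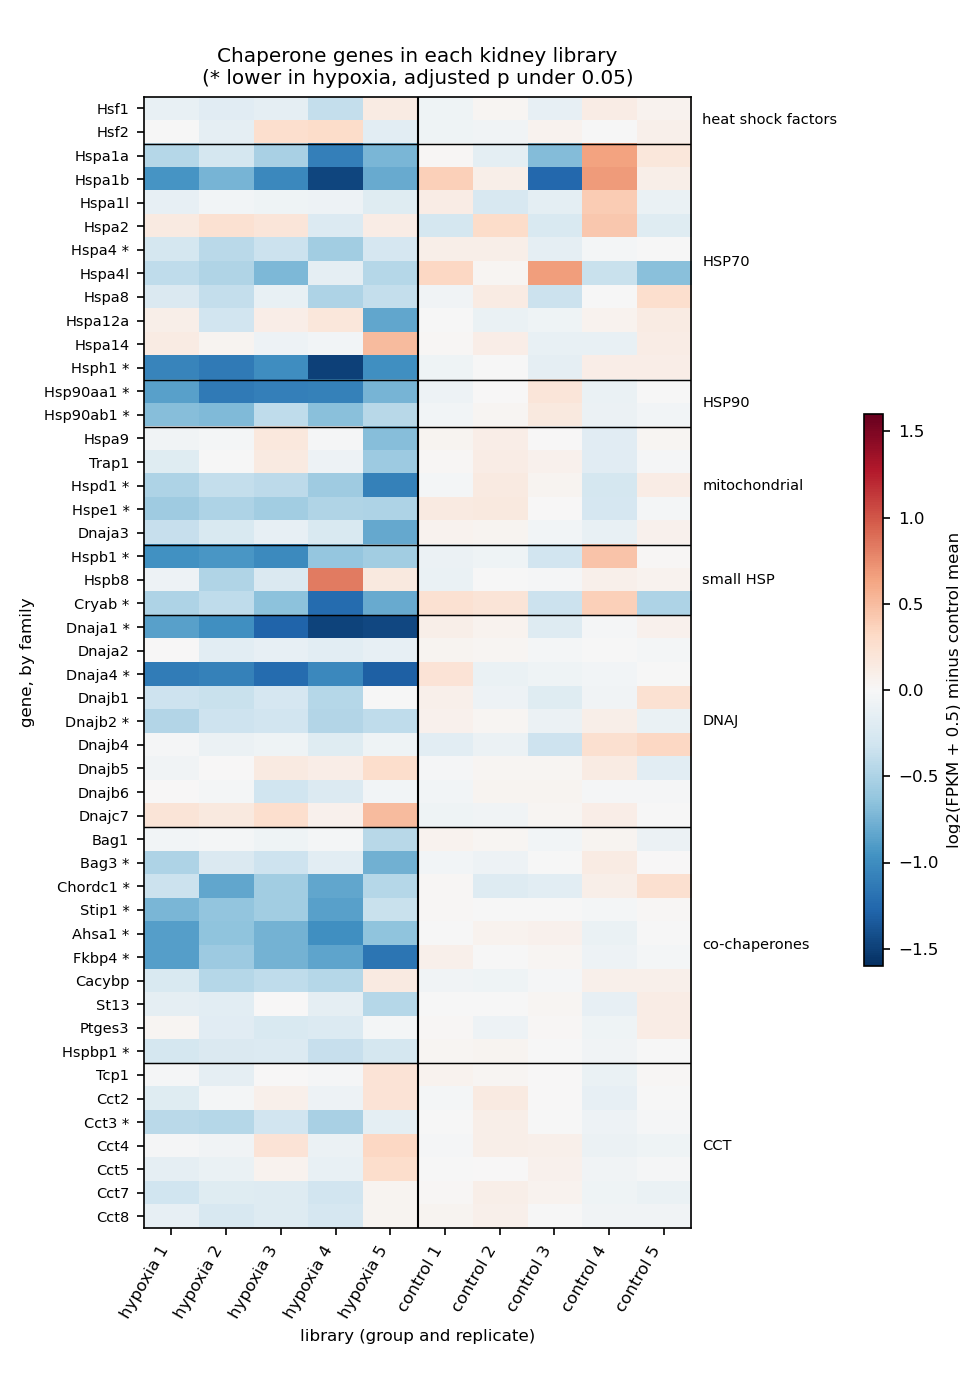
Level of the 48 chaperone genes in each library, as log2(FPKM + 0.5) minus the mean of the 5 control libraries (colour, blue lower and red higher), with genes in rows by family, the 5 hypoxia libraries on the left and the 5 control libraries on the right. The 18 genes marked with an asterisk passed an adjusted p of 0.05; the blue rows concentrate in HSP90, Hsph1, Dnaja1, Dnaja4, Hspb1 and several co-chaperones, while most CCT rows are pale.

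The heat shock factors themselves did not pass the test. Hsf1, which encodes the main activator of heat shock genes, was at 3.34, 3.16, 3.29, 2.70 and 4.07 FPKM in hypoxia replicates 1 to 5, against 3.48, 3.76, 3.30, 4.01 and 3.83 FPKM in control replicates 1 to 5. The groups overlapped, with a log2 fold change of -0.14 (adjusted p = 0.368, SE 0.0983). Hsf2, a related factor, was at 1.64, 1.44, 2.08, 2.13 and 1.41 FPKM in hypoxia replicates 1 to 5, against 1.55, 1.57, 1.74, 1.64 and 1.77 FPKM in control replicates 1 to 5, again overlapping, with a log2 fold change of 0.045 (adjusted p = 0.818). Neither value says anything about the activity of the proteins, which is set after translation.

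Because HSF1 acts through heat shock elements, inverted repeats of GAA and TTC, the promoters of the members were searched for a run of 3 such units. The letters searched were GAANNTTCNNGAA and TTCNNGAANNTTC, which are each other's reverse complement and so cover both strands, in windows from 250 bases before to 50 after a start site (RefSeq, GRCm38.p6). Windows were found for 40 of the 48 members, and Hsp90aa1, Hsp90ab1, Hspa8, Hspa9, Cryab, Cct4, St13 and Hsf1 were not searched. A match was found in 5 of these 40 genes, Hspd1, Hspe1, Hsph1, Chordc1 and Dnajb6, and in 179 (0.662%) of all 27025 genes with a window; per window the share was 0.603%. Of the 5 genes, Dnajb6 did not pass the test and the others fell, with Hspd1 and Hspe1 sharing the same match. Searched members without a match fell too, among them Dnaja1, Dnaja4, Ahsa1 and Fkbp4. Whether a match goes with the fall was not tested. A match describes letters and not a bound site, and a window without a match says nothing about HSF1.

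The windows of 3 genes that fell are printed 5′ to 3′ with the motif in capitals, to show how the elements differ in position and number of units; the start site is base 1, and bases before it count backwards. Hspd1 and Hspe1 start 216 bases apart on opposite strands, and the same 18 bases, with 2 overlapping matches, lie between them, at -89 to -72 of Hspe1 and -144 to -127 of Hspd1; the window shown is that of Hspe1 (chr1:55087898-55088197, plus strand). In Chordc1 (chr9:18292017-18292316, plus strand) 3 overlapping matches form a run of 23 bases at -4 to 19, across the start site. In Hsph1 (chr5:149636266-149636565, minus strand) the match lies at 16 to 28 of the start site shown and at 37 to 49 of a second one, and in Dnajb6, not shown, at -46 to -34 and -127 to -115 of its start sites.
Hspe1: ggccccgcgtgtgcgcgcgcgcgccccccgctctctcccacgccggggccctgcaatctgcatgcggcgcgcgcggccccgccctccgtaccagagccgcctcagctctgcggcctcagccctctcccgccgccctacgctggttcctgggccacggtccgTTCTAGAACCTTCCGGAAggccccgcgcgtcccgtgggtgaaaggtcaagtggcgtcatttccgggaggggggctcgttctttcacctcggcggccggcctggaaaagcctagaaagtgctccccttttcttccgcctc
Chordc1: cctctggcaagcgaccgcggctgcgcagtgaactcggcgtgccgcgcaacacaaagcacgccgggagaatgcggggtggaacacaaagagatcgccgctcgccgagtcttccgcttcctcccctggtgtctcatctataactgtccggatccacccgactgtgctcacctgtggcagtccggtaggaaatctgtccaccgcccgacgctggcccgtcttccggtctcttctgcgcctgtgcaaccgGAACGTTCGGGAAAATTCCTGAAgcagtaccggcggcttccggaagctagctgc
Hsph1: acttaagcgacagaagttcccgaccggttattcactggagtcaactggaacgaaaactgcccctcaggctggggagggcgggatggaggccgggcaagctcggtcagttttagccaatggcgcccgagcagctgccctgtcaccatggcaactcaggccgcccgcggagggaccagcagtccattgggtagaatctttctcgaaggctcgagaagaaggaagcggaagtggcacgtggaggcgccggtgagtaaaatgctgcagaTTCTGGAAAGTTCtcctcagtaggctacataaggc

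Of the 10 HSP70 and HSP110 genes 8 were tested: Hsph1 and Hspa4 fell and the others did not pass the test. Hsph1 (ENSMUSG00000029657, chr5:149614287-149636376, minus strand), whose promoter is among those printed, encodes a stress-inducible HSP110 that exchanges the nucleotide on HSP70. It had 13.03, 12.3, 13.6, 9.47 and 13.7 FPKM in hypoxia replicates 1 to 5, against 26.4, 27.5, 24.9, 29.6 and 29.8 FPKM in control replicates 1 to 5. Hypoxia replicate 4 was the lowest of all libraries, and the highest hypoxia value was below the lowest control. The mean was 0.450 times that of the controls, with a log2 fold change of -1.13 (adjusted p = 0.000312, SE 0.103), the 19th smallest p of all tested genes. Hspa4, the constitutively expressed HSP110, had 34.7, 31.1, 33.1, 28.7 and 35.0 FPKM in hypoxia replicates 1 to 5, against 44.9, 44.9, 38.1, 41.3 and 42.1 FPKM in control replicates 1 to 5. Its groups did not overlap either, but the step was smaller, with a log2 fold change of -0.37 (adjusted p = 0.0148, SE 0.0786).

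The ratio of Hsph1 to Hspa4 within a library does not depend on how libraries are scaled. It was 0.375, 0.396, 0.411, 0.330 and 0.392 in hypoxia replicates 1 to 5, against 0.587, 0.612, 0.652, 0.716 and 0.707 in control replicates 1 to 5. Each hypoxia ratio lay below each control ratio, with a difference of -0.78 in the mean log2 ratio (exact two-sided permutation test, p = 0.00794, adjusted p = 0.0119 over 3 ratios; 0.00794 is the smallest p that 252 regroupings allow). The inducible HSP110 message thus fell further than the constitutive one in these libraries.

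The stress-inducible HSP70 genes Hspa1a (ENSMUSG00000091971, chr17:34969190-34972156, minus strand) and Hspa1b (ENSMUSG00000090877, chr17:34956436-34959238, minus strand), which lie next to each other, were low and variable. Hspa1b had 7.39, 8.58, 6.97, 5.01 and 8.20 FPKM in hypoxia replicates 1 to 5, against 19.3, 15.7, 5.90, 24.0 and 15.8 FPKM in control replicates 1 to 5. Control replicate 3 was lower than 4 of the 5 hypoxia libraries, so that the groups overlapped, and the log2 fold change of -0.9999 (adjusted p = 0.0633, SE 0.311) did not pass. Hspa1a had 3.33, 3.84, 3.17, 1.96 and 2.68 FPKM in hypoxia replicates 1 to 5, against 4.83, 4.23, 2.75, 7.75 and 5.48 FPKM in control replicates 1 to 5, with the same low control and a log2 fold change of -0.62 (adjusted p = 0.110). Hspa1b passed when genes under a mean of 2 FPKM were left out (adjusted p = 0.0495). Without control replicate 3 both passed, at -1.31 for Hspa1b (adjusted p = 0.00491) and -0.79 for Hspa1a (adjusted p = 0.0471). That library is the low control named above, so a pass without it is no separate support. Without hypoxia replicates 4 and 5 neither passed, at -0.91 for Hspa1b (adjusted p = 0.151) and -0.42 for Hspa1a (adjusted p = 0.311). Of 21 alternative settings, Hspa1b passed in 2 and Hspa1a in 1. The 2 genes are near copies: 66.3% of the 50-base windows in Hspa1a transcripts and 62.3% of those in Hspa1b transcripts also occur in other genes, mostly in each other, so how their reads were divided is uncertain.

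Hspa8, the constitutive HSP70 of the cytosol and the most abundant of the HSP70 genes here, had 408, 369, 441, 339 and 367 FPKM in hypoxia replicates 1 to 5, against 462, 526, 377, 479 and 581 FPKM in control replicates 1 to 5. Control replicate 3 lay inside the hypoxia range, and the log2 fold change of -0.32 (adjusted p = 0.128, SE 0.130) did not pass. Hspa2, a member best known from the testis, was at 2.13 to 3.12 FPKM in hypoxia and 2.01 to 3.62 FPKM in control (log2 fold change 0.099, adjusted p = 0.706). Hspa14, which works at the ribosome, was at 5.12 to 7.98 FPKM in hypoxia and 4.97 to 5.95 FPKM in control (log2 fold change 0.11, adjusted p = 0.530), and Hspa12a, a distant relative, at 2.41 to 5.36 FPKM in hypoxia and 4.31 to 5.17 FPKM in control (log2 fold change -0.16, adjusted p = 0.577). All 3 overlapped between the groups, and hypoxia replicate 5 had the highest Hspa14 and the lowest Hspa12a of all libraries. Below the level tested were Hspa1l, a gene chiefly of the testis, with 7 to 10 reads per hypoxia library and 5 to 22 per control library, and Hspa4l, an HSP110 relative, with 17 to 76 reads in hypoxia and 20 to 200 in control.

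Both HSP90 genes fell, the inducible one more. Hsp90aa1 (ENSMUSG00000021270, chr12:110690605-110702728, minus strand), which encodes stress-inducible HSP90 alpha, had 84.6, 70.2, 72.4, 72.7 and 91.9 FPKM in hypoxia replicates 1 to 5, against 146, 155, 177, 143 and 154 FPKM in control replicates 1 to 5. Hsp90ab1 (ENSMUSG00000023944, chr17:45567775-45573271, minus strand), which encodes the constitutive HSP90 beta, had 301, 295, 362, 302 and 355 FPKM in hypoxia replicates 1 to 5, against 465, 491, 537, 450.1 and 467 FPKM in control replicates 1 to 5. For both genes the highest hypoxia library was below the lowest control. The mean was 0.506 times the control mean for Hsp90aa1, a log2 fold change of -0.98 (adjusted p = 0.000579, SE 0.101), and 0.670 times for Hsp90ab1, a log2 fold change of -0.58 (adjusted p = 0.00695, SE 0.1002).

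The ratio of Hsp90aa1 to Hsp90ab1 was 0.281, 0.238, 0.200, 0.241 and 0.259 in hypoxia replicates 1 to 5, against 0.314, 0.315, 0.330, 0.317 and 0.328 in control replicates 1 to 5. Control ratios hardly varied, and every hypoxia ratio was below them, with a difference of -0.41 in the mean log2 ratio (exact two-sided permutation test, p = 0.00794, adjusted p = 0.0119 over 3 ratios). Summed over both genes, HSP90 was at 401 ± 36.9 FPKM in hypoxia, against 637 ± 47.4 FPKM in control (SD, n = 5 each). A caution applies to Hsp90aa1, since 47.5% of the 50-base windows in its transcripts occur in other genes, mostly in the pseudogene Gm12346, against 3.44% for Hsp90ab1.

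**Figure D2:**
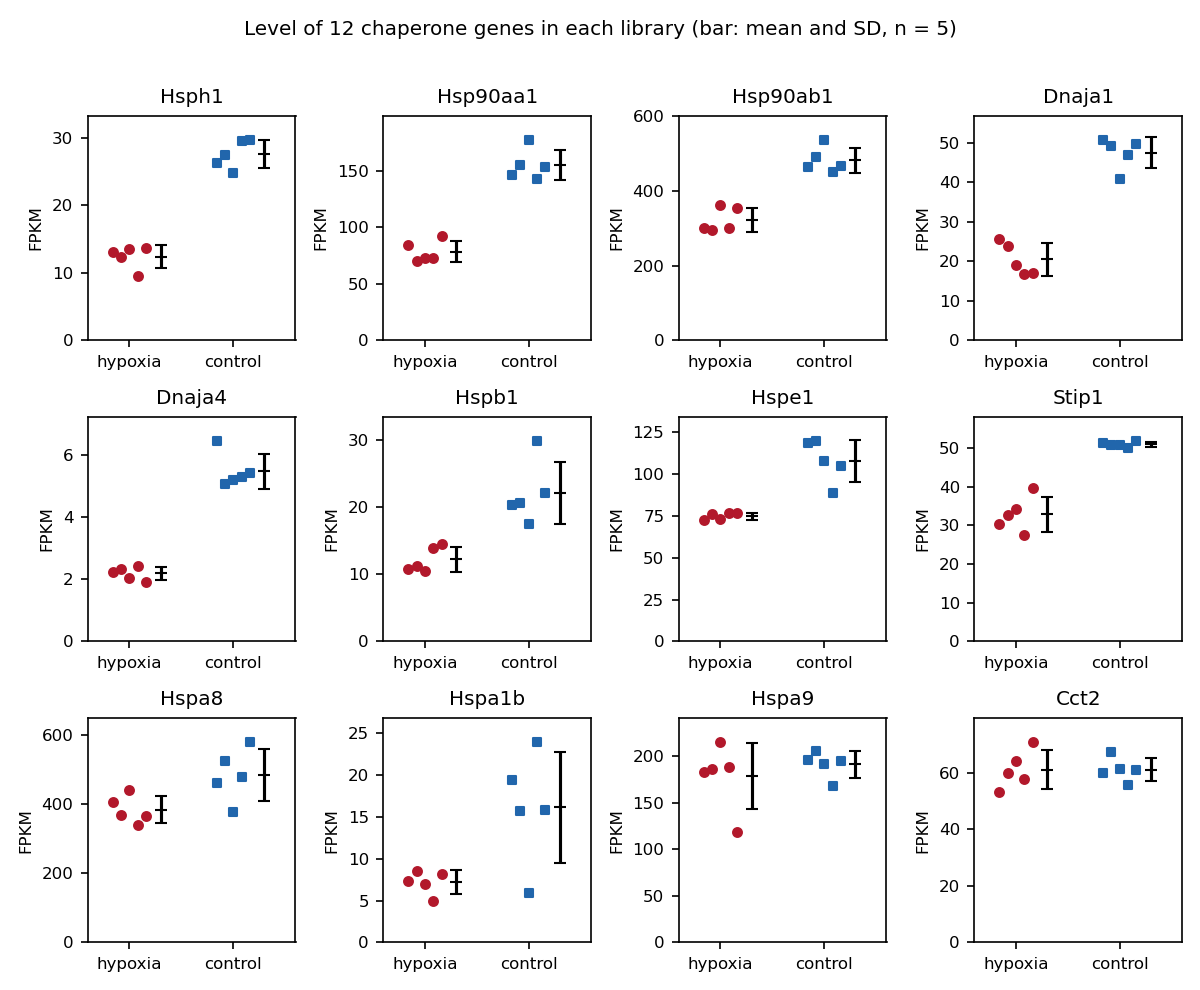
FPKM of 12 chaperone genes in each library (points; hypoxia in red on the left, control in blue on the right of each panel), with mean and SD (black, n = 5) and axes that start at 0. In Hsph1, Hsp90aa1, Hsp90ab1, Dnaja1, Dnaja4, Hspb1, Hspe1 and Stip1 the groups do not overlap; in Hspa8, Hspa1b, Hspa9 and Cct2 they do.

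Of 9 DNAJ genes, 3 fell and 6 did not pass. Dnaja1, which delivers clients to HSP70, had 25.7, 23.8, 19.1, 16.6 and 17.0 FPKM in hypoxia replicates 1 to 5, against 50.7, 49.2, 40.9, 46.8 and 49.8 FPKM in control replicates 1 to 5. Dnaja4, a close relative, had 2.24, 2.32, 2.03, 2.42 and 1.91 FPKM in hypoxia replicates 1 to 5, against 6.44, 5.04, 5.17, 5.27 and 5.40 FPKM in control replicates 1 to 5. Both were far below the controls in every hypoxia library: the mean was 0.431 times the control mean for Dnaja1, a log2 fold change of -1.21 (adjusted p = 0.000668, SE 0.128), and 0.399 times for Dnaja4, a log2 fold change of -1.15 (adjusted p = 8.04e-05, SE 0.0867). Dnaja4 had the 11th smallest p of all tested genes and Dnaja1 the 39th. Of the 50-base windows of Dnaja4, 42.7% occur in other genes, all of them in Wdr61, which itself had a log2 fold change of -0.041 (adjusted p = 0.750).

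Dnaja2, the third cytosolic gene of this type, had 60.7, 53.8, 55.3, 54.1 and 55.5 FPKM in hypoxia replicates 1 to 5, against 62.3, 61.97, 59.2, 60.4 and 59.3 FPKM in control replicates 1 to 5. The groups overlapped only at hypoxia replicate 1, and the log2 fold change of -0.12 (adjusted p = 0.242, SE 0.0631) did not pass. Dnajb2, whose protein steers clients to the proteasome, fell in every hypoxia library, to 7.46 ± 0.415 FPKM in hypoxia, against 9.98 ± 0.667 FPKM in control (SD, n = 5 each), with log2 fold change -0.40 (adjusted p = 0.00585). Dnajb1, the classical inducible HSP40, had 10.9, 10.8, 11.5, 9.95 and 13.9 FPKM in hypoxia replicates 1 to 5, against 14.8, 13.2, 12.1, 13.3 and 16.5 FPKM in control replicates 1 to 5. Hypoxia replicate 5 lay among the controls, and the log2 fold change of -0.28 (adjusted p = 0.102) did not pass with all libraries. Nor did it pass without hypoxia replicates 4 and 5, at -0.32 (adjusted p = 0.0612). When only hypoxia replicate 5 was left out it passed, at -0.35 (adjusted p = 0.0218).

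The remaining DNAJ genes did not pass. Dnajb6, which blocks the aggregation of polyglutamine proteins, was at 11.7 to 14.8 FPKM in hypoxia and 14.3 to 15.2 FPKM in control (log2 fold change -0.12, adjusted p = 0.287). Dnajb4 and Dnajb5, relatives of Dnajb1, showed mixed orders: Dnajb4 was at 3.68 to 4.23 FPKM in hypoxia and 3.31 to 5.54 FPKM in control (log2 fold change -0.088, adjusted p = 0.661) and Dnajb5 was at 1.06 to 1.47 FPKM in hypoxia and 0.943 to 1.27 FPKM in control (log2 fold change 0.094, adjusted p = 0.578). Dnajc7, whose protein binds HSP70 and HSP90 through tetratricopeptide repeats, had 8.68, 8.35, 9.11, 7.85 and 10.8 FPKM in hypoxia replicates 1 to 5, against 7.10, 7.15, 7.61, 8.08 and 7.40 FPKM in control replicates 1 to 5. It was higher in all but 1 hypoxia library than in every control, and its log2 fold change of 0.24 (adjusted p = 0.0884, SE 0.0845) was the largest positive value among the members. It passed only under 2 other settings, at 0.31 with scaling that left out the 100 most abundant genes (adjusted p = 0.0420) and at 0.20 with libraries weighted by their spread (adjusted p = 0.0339).

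Of 10 co-chaperones 6 fell, namely Ahsa1, Fkbp4, Stip1, Chordc1, Hspbp1 and Bag3, and all 10 had a negative log2 fold change. Ahsa1, which speeds up the ATPase of HSP90, had 9.29, 11.1, 10.3, 8.69 and 11.1 FPKM in hypoxia replicates 1 to 5, against 17.5, 18.2, 18.5, 16.3 and 17.6 FPKM in control replicates 1 to 5. Fkbp4, an immunophilin that couples HSP90 to steroid receptors, had 58.5, 71.9, 63.8, 59.96 and 47.7 FPKM in hypoxia replicates 1 to 5, against 115, 108, 110.2, 102 and 106 FPKM in control replicates 1 to 5. Stip1, the adaptor that joins HSP70 to HSP90, had 30.4, 32.6, 34.4, 27.6 and 39.6 FPKM in hypoxia replicates 1 to 5, against 51.4, 50.7, 50.8, 50.04 and 51.9 FPKM in control replicates 1 to 5. In each of these the groups were clearly apart, and the controls of Stip1 lay within 2 FPKM of each other. The log2 fold changes were -0.78 (adjusted p = 0.000522, SE 0.0785) for Ahsa1, -0.85 (adjusted p = 0.00148, SE 0.105) for Fkbp4 and -0.63 (adjusted p = 0.00324, SE 0.0913) for Stip1.

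Chordc1, another HSP90 partner and the gene with the long run of units at its start, fell to 6.26 ± 1.02 FPKM in hypoxia, against 9.74 ± 1.35 FPKM in control (SD, n = 5 each), with log2 fold change -0.60 (adjusted p = 0.0134). Hspbp1, which releases nucleotide from HSP70, was at 12.7 ± 0.525 FPKM in hypoxia, against 15.4 ± 0.442 FPKM in control, a log2 fold change of -0.27 (adjusted p = 0.0108). Bag3, an HSP70 exchange factor that feeds clients to autophagy, was at 11.03 ± 1.82 FPKM in hypoxia, against 14.6 ± 0.875 FPKM in control, a log2 fold change of -0.40 (adjusted p = 0.0390). In all 3 genes the groups did not overlap, but the call of Bag3 was lost in 7 of the 10 fits that left out 1 library (without hypoxia replicate 1 or 3, or any 1 control), with adjusted p up to 0.0795.

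The other 4 co-chaperones did not pass with all libraries. Ptges3, or p23, the HSP90 partner that stabilises its closed state, was at 32.5 to 39.3 FPKM in hypoxia and 36.2 to 41.9 FPKM in control (log2 fold change -0.13, adjusted p = 0.278). St13, which binds HSP70 in its ADP form, was at 16.8 to 23.3 FPKM in hypoxia and 21.2 to 25.2 FPKM in control (log2 fold change -0.18, adjusted p = 0.194). Bag1, another exchange factor, was at 114 to 152 FPKM in hypoxia and 145 to 161 FPKM in control (log2 fold change -0.12, adjusted p = 0.424), and its low end was hypoxia replicate 5 alone. Cacybp, which takes part in ubiquitin ligase complexes, had 19.4, 16.8, 17.3, 16.7 and 25.5 FPKM in hypoxia replicates 1 to 5, against 22.2, 21.9, 22.7, 24.4 and 24.5 FPKM in control replicates 1 to 5. Here hypoxia replicate 5 was the highest of all libraries and the other 4 were below every control; the log2 fold change was -0.28 (adjusted p = 0.123) with all libraries and -0.37 without hypoxia replicates 4 and 5 (adjusted p = 0.0126).

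**Figure D3:**
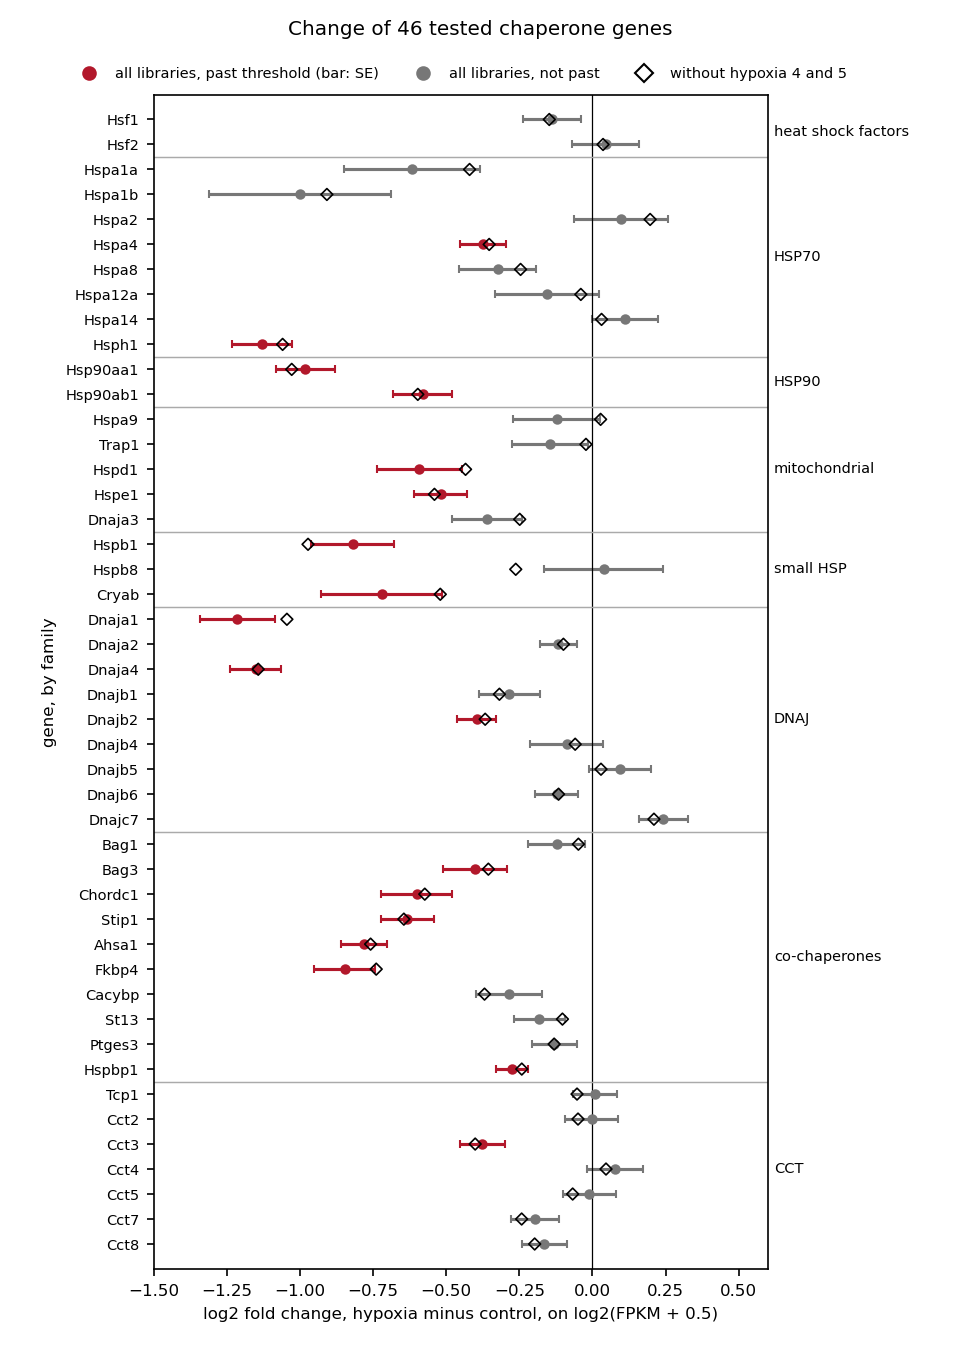
Fold changes (log2, hypoxia minus control) of the 46 tested chaperone genes, on log2(FPKM + 0.5), by family from top to bottom. Filled points with SE bars use all libraries (red past an adjusted p of 0.05, grey not past) and open diamonds leave out hypoxia replicates 4 and 5; most diamonds lie within the bars, the exceptions being Hspb8, Dnaja1, Hspd1, Hspb1, Fkbp4 and Hspa9.

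Small heat shock proteins hold unfolded proteins without using ATP, and 2 of the 3 genes passed the test. Hspb1 had 10.8, 11.2, 10.5, 13.9 and 14.6 FPKM in hypoxia replicates 1 to 5, against 20.4, 20.6, 17.5, 29.9 and 22.1 FPKM in control replicates 1 to 5. The groups did not overlap, the mean was 0.553 times the control mean, and the log2 fold change was -0.82 (adjusted p = 0.00731, SE 0.143). Of its 50-base windows, 50.1% also occur in other genes, nearly all in the pseudogene Hsp25-ps1, which was listed with 0 reads in every hypoxia library and at most 2 in a control library.

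Cryab, or alpha B-crystallin, abundant in the renal medulla and in muscle, had 57.3, 60.6, 50.8, 34.0 and 45.8 FPKM in hypoxia replicates 1 to 5, against 95.9, 93.1, 63.2, 106 and 57.0 FPKM in control replicates 1 to 5. Its log2 fold change of -0.72 (adjusted p = 0.0478, SE 0.206) passed narrowly although the groups overlapped, and without hypoxia replicates 4 and 5 it missed the threshold (-0.52, adjusted p = 0.133). It was also lost in 8 of the 10 fits without 1 library, all but those without hypoxia replicate 2 and without control replicate 5, with adjusted p up to 0.117. The controls with the lowest Cryab, replicates 5 and 3, also had the lowest sums of 3 principal cell markers, 162 and 133 FPKM. The other 3 controls were at 238 to 256 FPKM. In hypoxia these sums were 154 to 237 FPKM, and 216 to 237 FPKM in replicates 1 to 3. Sums of 3 thick ascending limb markers were ordered otherwise in the controls. They were 920 FPKM in control replicate 5 and 1630 FPKM in control replicate 3. In control replicates 1, 2 and 4 they were 1262, 1547 and 1840 FPKM. In hypoxia replicates 1 to 5 they were 1258, 1355, 1180, 911 and 879 FPKM. Within hypoxia, replicates 4 and 5 thus had the lowest values both of these sums and of Cryab. Smooth muscle markers summed to 17.8 to 31.0 FPKM in hypoxia and 18.4 to 29.9 FPKM in control, and skeletal muscle markers to at most 0.315 FPKM. The part of these cell types in the result was not tested. Hspb8, the partner of Bag3 in autophagy, had 2.78, 1.98, 2.45, 5.63 and 3.35 FPKM in hypoxia replicates 1 to 5, against 2.73, 2.94, 2.90, 3.16 and 3.09 FPKM in control replicates 1 to 5; it was highest in hypoxia replicate 4, and its log2 fold change was 0.039 (adjusted p = 0.914) with all libraries and -0.26 without hypoxia replicates 4 and 5 (adjusted p = 0.131).

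Mitochondria fold imported proteins with their own HSP70, encoded by Hspa9, and with a chamber built from HSP60 (Hspd1) and its lid HSP10 (Hspe1). Both genes of the chamber, which share the promoter element printed for Hspe1, fell. Hspe1 had 72.3, 76.2, 72.9, 76.6 and 76.5 FPKM in hypoxia replicates 1 to 5, against 119, 119.9, 108, 89.0 and 105 FPKM in control replicates 1 to 5. Hspd1 had 197, 212, 207, 186 and 131 FPKM in hypoxia replicates 1 to 5, against 271, 307, 285, 229 and 302 FPKM in control replicates 1 to 5. The hypoxia libraries of Hspe1 were nearly level, while Hspd1 was lowest in hypoxia replicate 5; neither gene's groups overlapped. The log2 fold change was -0.52 (adjusted p = 0.00740, SE 0.0912) for Hspe1 and -0.59 (adjusted p = 0.0284, SE 0.145) for Hspd1. The call of Hspd1 was lost without hypoxia replicate 4 and without control replicate 1, 2, 3 or 5, with adjusted p up to 0.0741.

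The ratio of Hspd1 to Hspe1 was 2.72, 2.78, 2.84, 2.43 and 1.71 in hypoxia replicates 1 to 5, against 2.28, 2.56, 2.64, 2.57 and 2.88 in control replicates 1 to 5. Hypoxia replicate 5 was the lowest and the other ratios mixed, with a difference of -0.071 in the mean log2 ratio (exact two-sided permutation test, p = 0.770). Hypoxia replicate 5 alone decided its sign: the difference was 0.059 without it, and 0.11 without hypoxia replicates 4 and 5. Reads of both genes may be shared with copies, since 42.1% of the 50-base windows of Hspd1 and 22.8% of those of Hspe1 occur in other genes.

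The other mitochondrial chaperones did not pass. Hspa9 had 183, 186, 215, 189 and 119 FPKM in hypoxia replicates 1 to 5, against 196, 206, 191, 168 and 195 FPKM in control replicates 1 to 5. Trap1, the HSP90 of mitochondria, had 92.7, 106, 117, 101 and 70.8 FPKM in hypoxia replicates 1 to 5, against 107, 116, 111, 93.7 and 105 FPKM in control replicates 1 to 5. Dnaja3, the DNAJ partner of Hspa9, had 29.4, 32.3, 34.9, 32.1 and 21.6 FPKM in hypoxia replicates 1 to 5, against 39.9, 39.5, 37.0, 35.1 and 40.2 FPKM in control replicates 1 to 5. Hypoxia replicate 5 was the lowest library in all 3, and apart from it Hspa9 and Trap1 overlapped the controls while Dnaja3 lay below every control in each hypoxia library. The log2 fold changes were -0.12 (adjusted p = 0.604) for Hspa9, -0.15 (adjusted p = 0.474) for Trap1 and -0.36 (adjusted p = 0.0758) for Dnaja3. Without hypoxia replicates 4 and 5 they were 0.028, -0.022 and -0.25, and none passed (adjusted p = 0.869, 0.906 and 0.0643). Without hypoxia replicate 5 alone Dnaja3 passed, at -0.25 (adjusted p = 0.0282).

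The CCT ring folds actin and tubulin, and of its 7 subunit genes among the members 1 passed the test. Cct3 fell, with 15.4, 15.1, 16.7, 14.4 and 18.7 FPKM in hypoxia replicates 1 to 5, against 20.9, 22.4, 20.9, 19.7 and 20.7 FPKM in control replicates 1 to 5. Its groups did not overlap, and the log2 fold change was -0.38 (adjusted p = 0.0138, SE 0.0771). Tcp1 was at 28.0 to 36.0 FPKM in hypoxia and 28.7 to 32.2 FPKM in control, Cct2 at 53.1 to 71.0 FPKM in hypoxia and 55.9 to 67.3 FPKM in control, Cct4 at 33.0 to 44.7 FPKM in hypoxia and 33.1 to 37.8 FPKM in control and Cct5 at 50.5 to 68.0 FPKM in hypoxia and 53.8 to 59.1 FPKM in control, with log2 fold changes from -0.010 for Cct5 to 0.076 for Cct4 and adjusted p from 0.613 to 0.991. Cct7 and Cct8 were at -0.20 (adjusted p = 0.137) and -0.17 (adjusted p = 0.182) on the log2 scale. In all 7 genes hypoxia replicate 5 was the highest of the hypoxia libraries. Without it Cct7 and Cct8 passed as well, at -0.26 (adjusted p = 0.0167) and -0.22 (adjusted p = 0.0253). Without hypoxia replicates 4 and 5, Cct7 passed at -0.24 (adjusted p = 0.0483) and Cct8 did not, at -0.20 (adjusted p = 0.0721). The summed level of the ring was 269 ± 28.5 FPKM in hypoxia, against 279 ± 11.9 FPKM in control (SD, n = 5 each). The direction of Cct2 and Cct5 turned with the scaling of the libraries, and that of Tcp1 with the omission of hypoxia replicate 5, so none of these 3 is given a direction here.

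**Figure D4:**
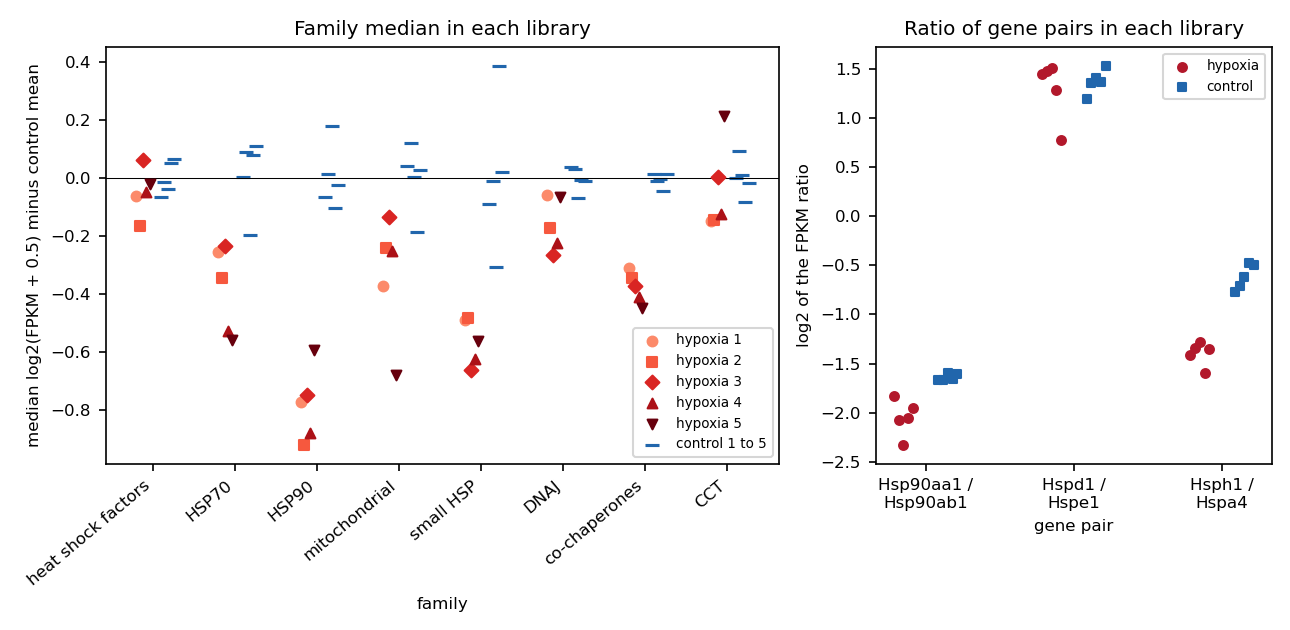
Left, median over the tested members of each family of log2(FPKM + 0.5) minus the control mean, for hypoxia replicates 1 to 5 (red symbols, left in each column) and the 5 controls (blue dashes, right). Right, log2 ratio of FPKM within each library for 3 gene pairs, hypoxia (red) left of control (blue); both HSP90 and HSP110 pairs separate the groups and the Hspd1 to Hspe1 pair does not.

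Families differed in which hypoxia library lay lowest. The median member lay -0.77, -0.92, -0.75, -0.88 and -0.59 from the control mean on the log2 scale in hypoxia replicates 1 to 5 for HSP90, -0.31, -0.34, -0.37, -0.41 and -0.45 for the co-chaperones and -0.49, -0.48, -0.66, -0.62 and -0.56 for the small heat shock proteins. It lay at -0.26, -0.35, -0.23, -0.53 and -0.56 for HSP70 and at -0.060, -0.17, -0.27, -0.22 and -0.065 for DNAJ. For mitochondrial chaperones it lay at -0.37, -0.24, -0.13, -0.25 and -0.68, and for CCT at -0.15, -0.14, 0.0029, -0.12 and 0.21. Hypoxia replicate 5 was thus the lowest hypoxia library for mitochondrial chaperones, HSP70 and co-chaperones and the highest for CCT and HSP90. The median log2 fold change of a family was -0.78 for HSP90, -0.72 for small heat shock proteins, -0.36 for mitochondrial chaperones, -0.35 for HSP70, -0.34 for co-chaperones, -0.12 for DNAJ, -0.047 for heat shock factors and -0.010 for CCT, against 0.012 over all tested genes. Without hypoxia replicates 4 and 5 these medians were -0.81, -0.52, -0.25, -0.30, -0.36, -0.12, -0.056 and -0.068 in the same order.

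Genes outside the set that serve related machines were put to the same test. Of 44 other chaperones and co-chaperones, 43 were tested, 8 fell and 0 rose, with a median log2 fold change of -0.16, against 7.79% lower and 3.66% higher of all tested genes; without hypoxia replicates 4 and 5, 9 were lower and 1 higher, Dnajc8, which is named for its count after its value was seen (log2 fold change 0.26, adjusted p = 0.0202). Dnajb11, a DNAJ protein of the endoplasmic reticulum, was at 18.6 ± 2.14 FPKM in hypoxia, against 37.7 ± 3.48 FPKM in control (SD, n = 5 each), with log2 fold change -1.0005 (adjusted p = 0.000348). Clpx, an unfoldase of mitochondria, was at 34.7 ± 4.60 FPKM in hypoxia, against 61.5 ± 6.42 FPKM in control (log2 fold change -0.82, adjusted p = 0.00226). Grpel1, the exchange factor of the Hspa9 protein, was at 19.9 ± 1.85 FPKM in hypoxia, against 28.0 ± 2.61 FPKM in control (log2 fold change -0.48, adjusted p = 0.00803), and Ahsa2, a relative of Ahsa1, at 1.97 ± 0.377 FPKM in hypoxia, against 3.50 ± 0.278 FPKM in control (log2 fold change -0.71, adjusted p = 0.00579). In these 4 genes the groups did not overlap, and Clpb, Pfdn2, Pfdn6 and Unc45a were the other 4 that fell. Among other genes known as targets of heat shock factors, Ubb, which encodes ubiquitin, fell to 301 ± 46.5 FPKM in hypoxia, against 413 ± 21.8 FPKM in control (log2 fold change -0.47, adjusted p = 0.0277), and Mrpl18 and Ier5 did not pass.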

How the data were processed

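The authors deposited 1 table of FPKM values, with HISAT2 2.0.5 as the aligner and the human build hg38 per the submitters' processing notes. The gene identifiers are of the mouse; 99.4% of the mouse genes found in a GRCm38 annotation, and 46 of the 48 members, had identical coordinates there, so coordinates are given as GRCm38. How reads were counted, by strand or at several matches, is not given in the sources used here. The deposited gene length, an other unit, was used with FPKM to recover whole reads (100% of values whole within 0.05); the library size behind the FPKM was 0.949 to 1.10 times the recovered total.

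FPKM was used as deposited. The 15264 genes whose mean reached 0.5 FPKM were tested on log2(FPKM + 0.5), which understates changes of low genes, with limma 3.58.1 in R 4.3.3 (hypoxia minus control, no covariate, trended and robust eBayes, two-sided, Benjamini-Hochberg over all tested genes, threshold 0.05). The fit was checked on simulated data. Ratios of 3 gene pairs were compared with an exact permutation test. Members and lists were chosen with earlier results of these data known. All members are named; of each other list, up to 4 genes past the threshold, by p; the other genes of these lists are not reported here. Windows of 50 bases were compared over annotated transcripts, on both strands. Alternatives covered scaling, pseudocount, filters, error model, a replicate block, recovered reads and the omission of libraries. The floor of 3 reads covers counting error only.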

Additional observations from a re-analysis of the deposited data

Results flagged for a closer look

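In 96 groups of 5 libraries (48 genes in hypoxia and in control), 3 single libraries stood apart from the other 4 by more than Dixon's critical gap of 0.71; chance flags about 1 group in 20. Bag1 was at 114.3 FPKM in hypoxia replicate 5, against 147.9 to 152.2 FPKM in the other hypoxia libraries. Dnaja2 was at 60.7 FPKM in hypoxia replicate 1, against 53.8 to 55.5 FPKM in the others. Dnaja4 was at 6.44 FPKM in control replicate 1, against 5.04 to 5.40 FPKM in the other controls.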

How the results depend on the processing

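Of the 18 members that fell, 13 kept their call under all 21 alternatives; the exceptions were Hspd1, Cryab, Bag3, Hspbp1 and Cct3, the last 2 lost only with limma voom on recovered reads (adjusted p = 0.0716 and 0.0527). The number of members lower was 14 with voom, 23 with array weights, 15 with no filter and 15 with a replicate block, and 15 to 22 when 1 library was left out; 1 member, Dnajc7, was higher with scaling that left out the 100 most abundant genes and 1 with array weights. The count over all genes was 966 with no filter, 3253 with array weights, 999 with the block and 824 to 2724 without 1 library (824, 864, 947 and 1016 without control replicate 1, 2, 3 and 5, 1053 without hypoxia replicate 4, 2724 without hypoxia replicate 5). Same-numbered libraries shared only a number (correlations of deviations from -0.077 to 0.086; 2 of 5 hypoxia libraries matched their own number best), so the block is no paired test. Under it the ratio differences were -0.41 for Hsp90aa1 to Hsp90ab1 and -0.78 for Hsph1 to Hspa4, with adjusted p = 0.0938 each in an exact sign-flip permutation test that cannot go below 0.0625 unadjusted. The Hspd1 to Hspe1 difference was 0.11 without hypoxia replicates 4 and 5 and -0.12 to 0.059 without 1 library.

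Small heat shock proteins had 1 lower member under both other scalings, no filter, no trend or robust, block, voom and without hypoxia replicates 4 and 5 (median then -0.52), and 1 to 2 without 1 library. Mitochondrial chaperones had 1 lower with no filter and with the block, and 1 to 3 without 1 library; CCT had 3 with array weights, 0 with voom, 2 without hypoxia replicates 4 and 5 and 1 to 3 without 1 library; HSP70 had 2 to 4. Medians moved beyond their spread to -0.21 (scaling without the 100 most abundant genes) and -0.22 (voom) over all members. Under the same settings they moved to -0.27 and -0.28 for co-chaperones. With a filter of 2 FPKM the medians were -0.20 for DNAJ and -0.14 for heat shock factors. That filter left out Dnajb5 and Hsf2, so the second value is that of Hsf1 alone. Log2 fold changes that never passed turned sign: Cct2 at 0.040 (median-of-ratios scaling), 0.071 (without the 100 most abundant) and 0.071 (voom), and -0.056 to 0.047 without 1 library; Cct5 at 0.031, 0.063 and 0.063 under the same, and -0.081 to 0.025; Tcp1 at -0.045 (array weights) and -0.053 (without hypoxia replicates 4 and 5), and -0.043 to 0.046; Hspa12a at 0.013 (array weights), and -0.24 to 0.014; Hspa9 at 0.028 and Hspb8 at -0.26 without hypoxia replicates 4 and 5, and -0.20 to 0.017 and -0.16 to 0.17 without 1 library; Hsf2 at -0.016 to 0.099. The causes were not tested. At this depth Hspa1l rested on 5 to 22 reads per library.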

Other observations

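Processed pseudogenes that share sequence with a member were listed with levels of their own. Gm12346, which holds 41.8% of the 50-base windows of Hsp90aa1, had 71 to 127 reads per hypoxia library and 181 to 215 per control library, a log2 fold change of -1.07 (limma adjusted p = 0.00112), beside -0.98 for Hsp90aa1. Gm15542, which holds part of the windows of Dnaja1, had 142 to 196 reads in hypoxia and 274 to 424 in control, a log2 fold change of -0.995 (adjusted p = 0.00187), beside -1.21 for Dnaja1. Hspd1-ps3 did not follow its parent in this way: it had 283 to 778 reads in hypoxia and 326 to 417 in control (0.14, adjusted p = 0.728). Ptges3-ps had 389 to 630 reads in hypoxia and 397 to 526 in control (0.010, limma adjusted p = 0.964). These were fewer than the 1235 to 1544 reads per library of Ptges3 itself. Only in FPKM, which divides by gene length, was Ptges3-ps above Ptges3, at means of 55.9 in hypoxia and 55.0 in control. Whether these reads came from the copies or from the parent genes was not tested. In 14 of the 48 members at least 10% of the windows occurred in other genes, on either strand. These other genes are not all pseudogenes: Wdr61 (for Dnaja4), Hspb2 (for Cryab) and Acat3 (for Tcp1) are protein-coding.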
